A study of Mus musculus with 5 samples.

Results

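The comparison set the ATRX peak list of neurons carrying TBC1D3 directly against that of neurons carrying MICAL1-M1, both taken on day 14 in vitro (DIV14). ATRX binding was mapped by ChIP-seq, in which chromatin is pulled down with an antibody and its DNA is sequenced. Members were all peaks of the 2 lists on chromosomes 1 to 19, which came to 335090 of the 651098 peaks in the 4 lists of the series, with 195085 peaks in the TBC1D3 list and 140005 in the MICAL1-M1 list. Both lists came from primary neurons of C57BL6/J mouse embryos (E15.5-17.5) grown in Neurobasal A with B27 and serum and given lentivirus on day 5. The labels give the construct by name alone, so its promoter, its dose and what M1 stands for were not used here. The series also holds mCherry lists at DIV14 and DIV7, used here as side lists, and an input sample that served as background. Each list was 1 library, so no value below carries an error between cultures, intervals in brackets are exact 95% intervals for counting error, and no test between conditions was possible. ChIP peaks do not measure expression, so the labelled cell type was not checked against transcripts.

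ATRX is a SWI/SNF-type chromatin remodeller that, with the chaperone DAXX, places the histone variant H3.3 at pericentromeric and telomeric repeats and other heterochromatin, and it also occupies CG-rich and G-rich sequence near genes. Loss of ATRX in humans causes a syndrome with intellectual disability. TBC1D3 is a hominoid gene of the TBC family, whose members act on RAB GTPases, and mice lack it. MICAL1 is a monooxygenase that oxidises actin and binds RAB proteins. The title of the series places them on a signalling axis that sets the pace of synapse maturation.

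The lists differed in depth and make-up before any position was compared. Fold and p of each row gave back a genome background of 1.22 fragments in the TBC1D3 library and 2.61 in the MICAL1-M1 library, with 3.56 in mCherry at DIV14 and 1.28 in mCherry at DIV7. A peak at that background needed at least 3 fragments in TBC1D3 and at least 5 in MICAL1-M1, and the median summit held 4 fragments in TBC1D3 and 7 in MICAL1-M1. Median peak width was 324 bp in TBC1D3 and 404 bp in MICAL1-M1, and 0.598% of TBC1D3 peaks and 4.35% of MICAL1-M1 peaks were 1 kb or wider. Both lists were cut at an uncorrected p of 0.05, and 98.2% of TBC1D3 peaks and 94.4% of MICAL1-M1 peaks had a q of 1. A q of at most 0.05 was reached by 296 TBC1D3 peaks (0.152%, 0.135 to 0.170) and 616 MICAL1-M1 peaks (0.440%, 0.406 to 0.476). The peak names inside the MICAL1-M1 list start with M2, while the sample label reads M1. The list is called MICAL1-M1 here as labelled. Because depth and construct differ together, they cannot be told apart in any value below, and a peak called TBC1D3-only or MICAL1-M1-only is one absent from the other list at its threshold.

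Start-site sequences of genes from each class are shown as examples. All sequences below are the 250 bases before the start (RefSeq, GRCm38.p6), 5′ to 3′ on the strand of the gene, with CG dinucleotides in capitals, because CG content differed between the classes of start site. Over 20085 start sites of protein-coding genes the median was 10 CG in these 250 bases (quartiles 3 and 19). Vgll3, a cofactor of TEAD transcription factors (chr16:65814939-65815188, plus strand), and Art1, an ADP-ribosyltransferase (chr7:102101493-102101742, plus strand), were among the 10 genes with the highest TBC1D3 fold at an end where MICAL1-M1 had no peak within 3 kb. They held 16 and 3 CG, and their TBC1D3 summits lay at 194 bp and at -659 bp from the start, the second outside the printed bases. Of these 10 genes, 6 had a start site in the table, and for 3 of them it lay within 1 kb of the summit. Over 300 bases, as the median of the start sites of a gene, Ccdc6 held 44 CG, Vgll3 19, Nup54 17, Art5 11, Art3 7 and Art1 4. Ccdc6 was above each of the 10 MICAL1-M1 genes, which held 8 to 42 by that measure.
Vgll3: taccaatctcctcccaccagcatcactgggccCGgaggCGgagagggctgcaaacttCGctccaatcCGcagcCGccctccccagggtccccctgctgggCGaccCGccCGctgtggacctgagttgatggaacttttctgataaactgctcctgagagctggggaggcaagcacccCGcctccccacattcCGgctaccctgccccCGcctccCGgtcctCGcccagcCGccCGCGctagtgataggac
Art1: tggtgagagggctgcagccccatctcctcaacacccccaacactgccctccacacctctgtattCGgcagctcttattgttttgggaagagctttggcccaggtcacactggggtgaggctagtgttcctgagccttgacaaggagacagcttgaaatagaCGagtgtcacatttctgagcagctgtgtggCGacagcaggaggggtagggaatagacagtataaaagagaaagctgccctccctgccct

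Ppm1a, a protein phosphatase that acts on SMAD and stress kinases (chr12:72760961-72761210, plus strand), Socs4, of the suppressor of cytokine signalling family (chr14:47276670-47276919, plus strand), and Api5, an inhibitor of apoptosis (chr2:94438187-94438436, minus strand), were among the 10 such genes of MICAL1-M1. They held 31, 27 and 13 CG, and their MICAL1-M1 summits lay at -181, -316 and 268 bp from the start. All 10 genes had a start site within 1 kb of the summit, with 3 to 31 CG before it, and 3 of them (E130311K13Rik, Gm32687 and Cd151) were below the median of all start sites.
Ppm1a: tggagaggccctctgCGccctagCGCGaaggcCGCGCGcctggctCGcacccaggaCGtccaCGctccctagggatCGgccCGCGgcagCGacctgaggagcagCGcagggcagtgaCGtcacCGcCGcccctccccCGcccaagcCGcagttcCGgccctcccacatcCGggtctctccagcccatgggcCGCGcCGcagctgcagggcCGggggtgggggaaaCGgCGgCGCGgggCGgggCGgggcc
Socs4: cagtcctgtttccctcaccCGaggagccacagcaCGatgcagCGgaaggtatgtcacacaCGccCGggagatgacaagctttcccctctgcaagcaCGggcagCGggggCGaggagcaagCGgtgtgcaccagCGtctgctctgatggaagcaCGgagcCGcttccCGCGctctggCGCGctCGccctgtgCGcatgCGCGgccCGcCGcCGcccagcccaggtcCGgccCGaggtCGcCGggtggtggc
Api5: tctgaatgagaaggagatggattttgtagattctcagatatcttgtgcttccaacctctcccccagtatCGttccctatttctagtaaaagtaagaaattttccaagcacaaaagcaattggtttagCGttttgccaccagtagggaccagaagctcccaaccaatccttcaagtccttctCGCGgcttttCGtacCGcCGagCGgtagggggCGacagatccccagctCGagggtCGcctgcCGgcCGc

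Dner, a Notch ligand of neurons (chr1:84696222-84696471, minus strand), and Epha5, an ephrin receptor of axon guidance (chr5:84417383-84417632, minus strand), were among the 10 genes ranked highest in both lists. They held 11 and 20 CG. Dner had a q under 0.05 in both lists and Epha5 in neither. At Dner the summits lay 385 bp after the start in TBC1D3 and 448 bp in MICAL1-M1. At Epha5 they lay 189 bp after the start in TBC1D3 and 167 bp in MICAL1-M1.
Dner: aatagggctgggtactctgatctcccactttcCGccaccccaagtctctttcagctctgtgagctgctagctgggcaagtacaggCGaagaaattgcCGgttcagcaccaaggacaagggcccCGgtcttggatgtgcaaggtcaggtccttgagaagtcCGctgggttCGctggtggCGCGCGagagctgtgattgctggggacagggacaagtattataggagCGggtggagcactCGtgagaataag
Epha5: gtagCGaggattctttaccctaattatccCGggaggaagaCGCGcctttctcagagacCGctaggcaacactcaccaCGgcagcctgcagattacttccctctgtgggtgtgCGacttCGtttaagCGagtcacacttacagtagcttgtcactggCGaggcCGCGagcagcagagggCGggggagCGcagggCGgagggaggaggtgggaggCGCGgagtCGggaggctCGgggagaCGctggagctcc

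Most peaks of either list had no partner in the other. A TBC1D3 summit lay inside a MICAL1-M1 peak in 5.62% of cases (5.52 to 5.72), and MICAL1-M1 peaks covered 2.85% of the bases, a ratio of 1.97. A MICAL1-M1 summit lay inside a TBC1D3 peak in 5.86% of cases (5.74 to 5.98), and TBC1D3 peaks covered 3.02% of the bases, a ratio of 1.94. By an overlap of at least 1 bp, 17404 TBC1D3 peaks (8.92%) and 17117 MICAL1-M1 peaks (12.2%) were shared, which left 177681 TBC1D3-only and 122888 MICAL1-M1-only peaks. The larger share on the MICAL1-M1 side goes with the longer TBC1D3 list. With both lists cut to their strongest 140005 peaks, the shared shares were 9.61% of TBC1D3 peaks and 9.49% of MICAL1-M1 peaks.

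Stronger peaks lay inside peaks of the other full list more often, in 4.55% of TBC1D3 summits with a -log10 p under 2 and 22.8% of those at 8 or more, and in 4.70% and 48.8% of such MICAL1-M1 summits. Cutting both lists to fewer peaks gave a higher ratio to the covered share. At equal size, TBC1D3 summits lay inside MICAL1-M1 peaks in 6.07% of cases, 2.13 times the covered share, and among the strongest 50000 of each list the ratio was 3.53. Among the strongest 10000 it was 9.49 from the TBC1D3 side and 11.5 from the MICAL1-M1 side, though the shares themselves were 2.87% (2.55 to 3.22) of TBC1D3 summits and 2.14% (1.87 to 2.44) of MICAL1-M1 summits. Of the peaks with a q of at most 0.05, 78 of 296 in TBC1D3 (26.4%, 21.4 to 31.8) and 289 of 616 in MICAL1-M1 (46.9%, 42.9 to 50.9) overlapped some peak of the other list. With all lists at 96230 peaks, TBC1D3 summits lay in MICAL1-M1 peaks at 2.50 times the covered share, in mCherry DIV14 peaks at 2.20 times and in mCherry DIV7 peaks at 2.08 times. MICAL1-M1 summits lay in TBC1D3 peaks at 2.44 times, in mCherry DIV14 peaks at 5.54 times and in mCherry DIV7 peaks at 1.86 times. The pair of MICAL1-M1 and mCherry at DIV14 had the highest ratio of those read from the TBC1D3 and MICAL1-M1 sides, and these are the libraries with the highest recovered backgrounds.

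Over the full lists, TBC1D3-only peaks lay at gene ends about as often as bases did, MICAL1-M1-only peaks more often and shared peaks most often. That order changed at a q of at most 0.05. A gene end is the 1 kb on either side of the start or end of a protein-coding gene, and such windows held 3.10% of bases. They held 3.11% of TBC1D3-only summits (3.03 to 3.20), 5.46% of MICAL1-M1-only summits (5.34 to 5.59), and 13.9% (13.4 to 14.4) of shared summits as placed by TBC1D3. As placed by MICAL1-M1 the shared share was 13.6% (13.1 to 14.2). The remainder of gene spans held 37.6% of TBC1D3-only, 45.3% of MICAL1-M1-only and 43.6% of shared summits, against 39.2% of bases. Outside protein-coding genes lay 59.3% of TBC1D3-only and 49.2% of MICAL1-M1-only summits, against 57.7% of bases. With lists cut at a q of at most 0.05, gene ends held MICAL1-M1-only summits at 14.2 times their share of bases (12.8 to 15.5). Shared summits stood lower, at 4.04 times (1.13 to 9.36) as placed by TBC1D3 and 3.49 times (0.977 to 8.21) by MICAL1-M1. TBC1D3-only summits stood at 3.18 times (2.11 to 4.55). Only 32 TBC1D3 and 37 MICAL1-M1 peaks were shared at that cut. A peak called list-only there can still overlap a weaker peak of the other full list. At equal list size the gene-end shares were 3.20% of TBC1D3-only and 5.58% of MICAL1-M1-only summits. TBC1D3-only summits then stood at 1.03 times the share of bases (1.004 to 1.07), and at 1.04 times (1.01 to 1.08) at a p of at most 0.01. With shared peaks included, gene ends held 4.08% of all TBC1D3 summits (3.99 to 4.16) and 6.46% of all MICAL1-M1 summits (6.34 to 6.59).

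**Figure D1:**
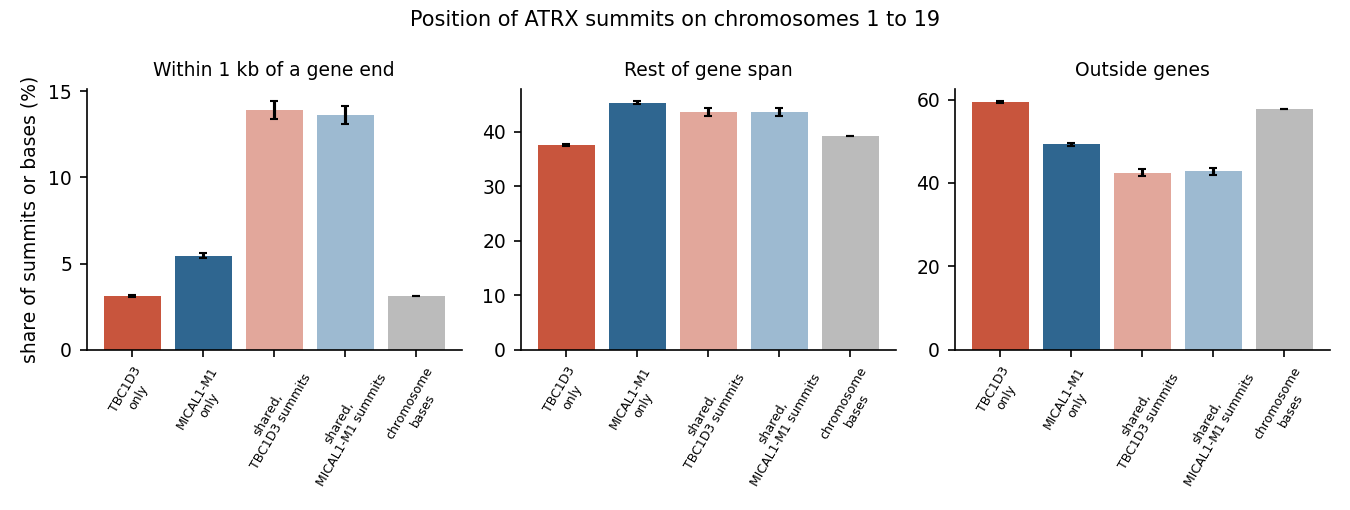
Share of summits (y axis, %) within 1 kb of a gene end, elsewhere within gene spans and beyond protein-coding genes, for TBC1D3-only, MICAL1-M1-only and shared peaks, with the share of chromosome bases in grey; bars on columns are exact 95% binomial intervals. TBC1D3-only summits sit at the level of the bases at gene ends (3.11% against 3.10%), MICAL1-M1-only summits at 5.46% and shared summits at 13.9% and 13.6%.

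The sets also differed by other features of the genome. Spans of protein-coding genes of 500 kb or more held 7.80% of TBC1D3-only and 11.2% of MICAL1-M1-only summits, against 7.50% of bases. Pseudogenes held 1.87% of TBC1D3-only summits (1.81 to 1.94) and 1.02% of MICAL1-M1-only summits (0.967 to 1.08), against 1.89% of bases. Windows of 1 Mb with 16 or more protein-coding genes held TBC1D3-only summits at 0.882 times and MICAL1-M1-only summits at 0.699 times their share of bases. With the covered range of each chromosome cut into 10 equal stretches, the last held 11.1% of TBC1D3-only and 10.1% of MICAL1-M1-only summits. The first, next to the centromere in mouse, held 9.84% of TBC1D3-only and 8.95% of MICAL1-M1-only summits. Over chromosomes, the ratio of TBC1D3 to MICAL1-M1 peaks ran between 1.22 on chromosome 16 and 1.61 on chromosome 7, and at equal list size between 0.881 and 1.15 on the same chromosomes.

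The gap at gene ends was widest among strong peaks. Where -log10 p was under 2, gene ends held 3.73% of TBC1D3 summits (3.59 to 3.88) and 3.78% of MICAL1-M1 summits (3.63 to 3.93), whose intervals overlap. From 3 to 4 the shares were 6.23% (5.81 to 6.68) in TBC1D3 and 13.9% (13.3 to 14.5) in MICAL1-M1. From 5 to 8 they were 13.6% (11.01 to 16.5) of 633 TBC1D3 summits and 37.9% (35.3 to 40.5) of 1378 MICAL1-M1 summits. At 8 or more they were 5.52% (2.41 to 10.6) of 145 TBC1D3 summits and 37.5% (26.9 to 49.0) of 80 MICAL1-M1 summits. A given p marks a different number of fragments in each library, so the strata rank peaks within a list and set no level across lists.

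**Figure D2:**
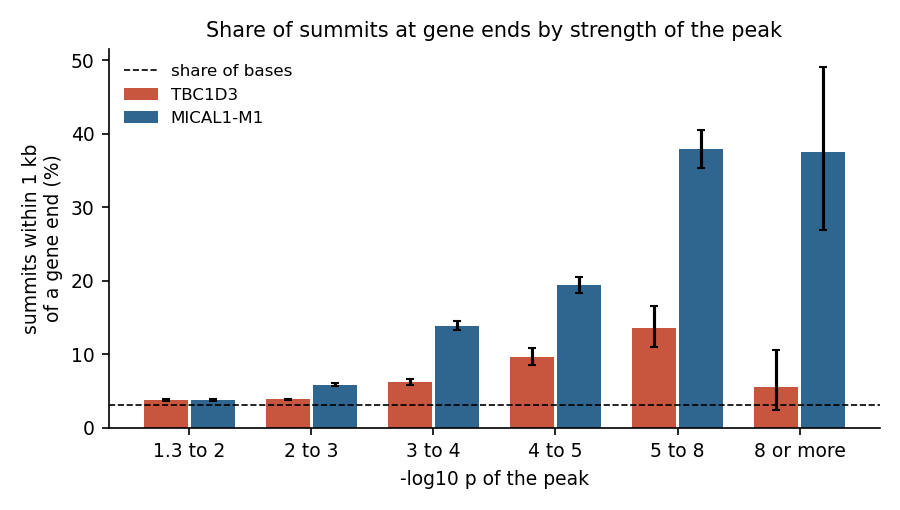
Share of summits within 1 kb of a gene end (y axis, %) by -log10 p of the peak (x axis) in TBC1D3 and MICAL1-M1, with exact 95% binomial intervals and the share of bases as a dashed line. The lists are alike below 2 (3.73% and 3.78%) and apart from 5 to 8 (13.6% and 37.9%).

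The peaks with the firmest calls lay in different places. With a q of at most 0.05, gene ends held 30 of 296 TBC1D3 peaks (10.1%, 6.94 to 14.2) and 258 of 616 MICAL1-M1 peaks (41.9%, 37.95 to 45.9), and 64.2% of the TBC1D3 peaks but 23.1% of the MICAL1-M1 peaks lay outside protein-coding genes. The TBC1D3-only peaks of highest fold lay on chromosome 1 from 48881515 to 48881870, outside genes with Slc39a10 the nearest at 1956 kb (9.91-fold over the caller's background), on chromosome 18 from 85697926 to 85698321, also outside genes with Neto1 the nearest at 697 kb (9.33-fold), and on chromosome 12 from 78350869 to 78351172 inside Gphn, which encodes the inhibitory-synapse scaffold gephyrin (8.72-fold). Of the 10 such peaks, none lay at a gene end. Those of MICAL1-M1 included Nampt, an enzyme of NAD synthesis (chromosome 12, 32819969 to 32820480, 5.26-fold), the ubiquitin gene Ubb (chromosome 11, 62549631 to 62552043, 4.98-fold) and the repair nuclease gene Ercc4 (chromosome 16, 13108530 to 13109863, 4.87-fold), each at a gene end. Of those 10, 4 lay at a gene end. Among shared peaks, a site within the span of Cacng4, a TARP auxiliary subunit of AMPA receptors, was in the top 10 of both lists, at 6.78-fold in TBC1D3 and 5.30-fold in MICAL1-M1. The first 100 kb of chromosome 9 with peaks held 18 of the 296 TBC1D3 peaks and 19 of the 616 MICAL1-M1 peaks. The densest windows were the 411 windows of 100 kb with more than 18 TBC1D3 or more than 19 MICAL1-M1 summits. They held 62 of the 296 TBC1D3 peaks and 66 of the 616 MICAL1-M1 peaks. The part of repeated sequence in the places of these peaks was not tested. Positions are those of the deposited lists and fold values are the authors' own for each list.

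ATRX summits of both lists were densest just after the start of transcription, and the excess over the flanks was larger in MICAL1-M1. The first 250 bp after 20085 start sites held 1124 TBC1D3 summits, 3.27 times the mean of bins beyond 5 kb, and 1936 MICAL1-M1 summits, 8.87 times that mean. The same bin stood at 3.76 times the flanks for the TBC1D3 list cut to 140005 peaks, at 16.4 times in mCherry at DIV14 and at 3.38 times in mCherry at DIV7. Within 1 kb, 61.2% of TBC1D3 summits (59.96 to 62.5) and 57.3% of MICAL1-M1 summits (56.3 to 58.4) lay downstream of the start, with 57.4% in mCherry at DIV14 and 62.0% in mCherry at DIV7. Among the 4 lists the ratio was in the order of TBC1D3, mCherry DIV7, MICAL1-M1 and mCherry DIV14, which is also the order of their recovered backgrounds, and the part of depth in the result was not tested.

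**Figure D3:**
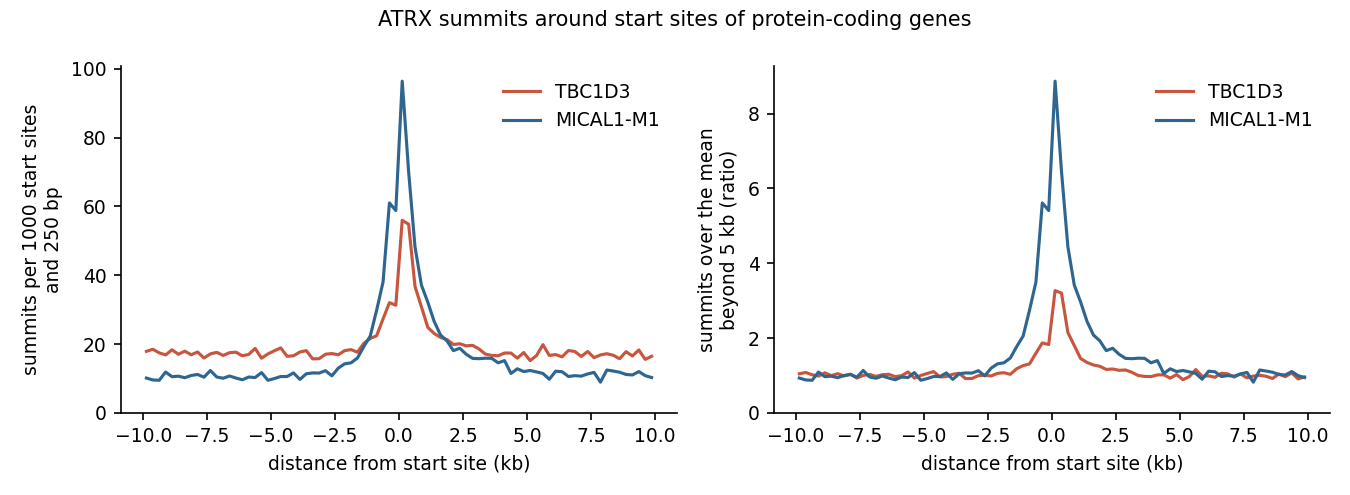
ATRX summits by distance from the start sites of protein-coding genes (x axis, kb, downstream positive) in TBC1D3 and MICAL1-M1, as summits per 1000 start sites and 250 bp bin (left) and as a ratio to the mean of bins beyond 5 kb (right). The highest bin is 0 to 250 bp in both lists, at 3.27 in TBC1D3 and 8.87 in MICAL1-M1 on the right.

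Over the full lists, TBC1D3 summits were more frequent than MICAL1-M1 summits at start sites poor in CG and less frequent at those rich in CG. Start sites were ranked by CG dinucleotides in 300 bases around the start (250 before and 50 after) and split into 10 bins of equal size. In the poorest bin, 9.46% of start sites (8.21 to 10.8) had a TBC1D3 summit within 1 kb and 3.83% (3.04 to 4.77) a MICAL1-M1 summit. In the richest bin the shares were 43.5% (41.3 to 45.7) in TBC1D3 and 66.2% (64.1 to 68.3) in MICAL1-M1. TBC1D3 was above MICAL1-M1 in the 3 poorest bins and below it in the 6 richest, with intervals apart. In the bin between, the shares were 22.2% in TBC1D3 (20.4 to 24.1) and 25.05% in MICAL1-M1 (23.2 to 27.0), with intervals that overlap. At equal list size the poorest bin had 6.82% (5.76 to 8.01) in TBC1D3 and 3.83% (3.04 to 4.77) in MICAL1-M1. The second bin had 9.56% (8.31 to 10.9) in TBC1D3 and 8.91% (7.70 to 10.2) in MICAL1-M1, with intervals that overlap. The third bin had 13.5% in TBC1D3 and 13.6% in MICAL1-M1, so the crossing lay lower. Of the 3 poorest bins, only the poorest then kept its intervals apart. Start sites occupied in TBC1D3 alone had a median of 12 CG, those in MICAL1-M1 alone 21, those in both 24, those in neither 5 and all start sites 14. Of these classes, 32.6% of TBC1D3-only, 8.95% of MICAL1-M1-only and 4.95% of shared start sites had 5 CG or fewer, against 31.4% of all. The side lists ran between 2.39% and 75.4% in mCherry at DIV14 and between 13.3% and 42.0% in mCherry at DIV7 from the poorest to the richest bin.

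**Figure D4:**
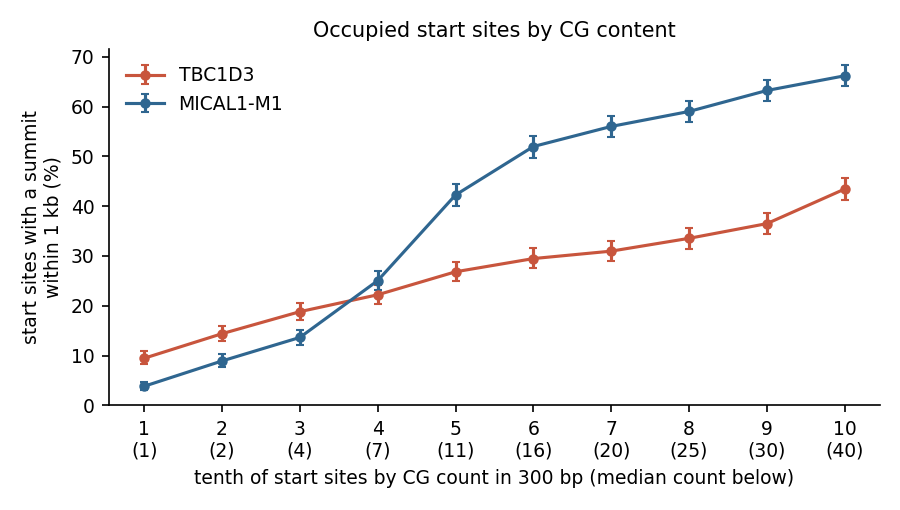
Share of start sites with an ATRX summit within 1 kb (y axis, %) by bin of CG count in 300 bases, 10 bins of equal size (x axis, median count in brackets) in TBC1D3 and MICAL1-M1, with exact 95% binomial intervals. Over the full lists, shown here, the lines cross between the third and the fourth bin, and the richest bin holds 43.5% in TBC1D3 and 66.2% in MICAL1-M1.

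Counted by gene, the lists covered partly different sets. Of 20665 protein-coding genes, 3418 (16.5%) had a gene-end summit in TBC1D3 alone, 4581 (22.2%) in MICAL1-M1 alone and 3761 (18.2%) in both. Any gene-end summit was found in 7179 genes (34.7%) in TBC1D3 and in 8342 (40.4%) in MICAL1-M1. At equal list size 2624 genes (12.7%) were in TBC1D3 alone, 5252 (25.4%) in MICAL1-M1 alone and 3090 (15%) in both, with 5714 (27.7%) in TBC1D3 in all. With a window of 3 kb the order turned round, with 4454 genes in TBC1D3 alone and 3546 in MICAL1-M1 alone. It also turned round when a summit anywhere in the gene span counted, with 3578 genes (17.3%) in TBC1D3 alone, 2102 (10.2%) in MICAL1-M1 alone and 10605 (51.3%) in both, or 68.6% in TBC1D3 and 61.5% in MICAL1-M1 in all. With start sites as the only window, 1940 of 16457 genes (11.8%) were in TBC1D3 alone, 3925 (23.9%) in MICAL1-M1 alone and 2714 (16.5%) in both, or 28.3% in TBC1D3 and 40.3% in MICAL1-M1 in all. The same window at equal list size gave 1492 genes (9.07%) in TBC1D3 alone, 4398 (26.7%) in MICAL1-M1 alone and 2241 (13.6%) in both, or 22.7% in TBC1D3 in all. Counted by start site, 2349 of 20085 (11.7%) were in TBC1D3 alone, 4850 (24.1%) in MICAL1-M1 alone and 2987 (14.9%) in both, or 26.6% in TBC1D3 and 39% in MICAL1-M1 in all. TBC1D3-only genes had a median of 12 CG and 33.6% of them had a gene-end summit in mCherry at DIV14. MICAL1-M1-only genes had a median of 22 CG and 68.7% had one there. Genes in both lists had a median of 23 CG and 72.7% had one there. In mCherry at DIV7 the shares were 33.9%, 37.4% and 47.3% for the same 3 classes. Of all protein-coding genes, 44.3% had a gene-end summit in mCherry at DIV14 and 34.3% in mCherry at DIV7.

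The genes that led each class differed in how firm the peak was. Sfi1, a centrosomal protein gene (chromosome 11, peak 3132029 to 3132561), had the highest TBC1D3-only fold at 5.74, with a q of 1.15e-09, and no MICAL1-M1 peak within 3 kb. Vgll3 followed at 4.51-fold and Camsap3, which caps minus ends of microtubules, at 4.50-fold. The other 7 were Art1, Art3, Art5, Ccdc6, Itga6, Nup54 and Rbfa, each at 4.06-fold with a q of 0.0813. Art1 and Art5 shared 1 peak, as did Art3 and Nup54. In MICAL1-M1 alone, E130311K13Rik and Ppm1a led at 4.71-fold, followed by Gm32687 (4.58), Api5 (4.46), the Golgi adaptor gene Gga1 (4.43), and Socs4 and Wdhd1, which share 1 peak (4.41). Calu, Cd151 and Cep57 closed the 10 at 4.15-fold. All 10 MICAL1-M1-only genes had a q under 0.05, and 3 of the 10 TBC1D3-only genes did. Over all genes, 10 of the 3418 TBC1D3-only and 112 of the 4581 MICAL1-M1-only genes had such a peak.

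The 10 genes ranked highest in both lists were of mixed kinds and differed in how firm their peaks were. Dner, Slc30a4, Psip1, Gm20783 and LOC108167694 had a q under 0.05 in both lists. Bcl9 did so in MICAL1-M1 alone (q = 0.0813 in TBC1D3), and Rab2a in TBC1D3 alone (q = 0.116 in MICAL1-M1). Arl4c (q = 0.124 in TBC1D3, 0.0552 in MICAL1-M1) did so in neither list. Nor did Zc3h12c (0.0813 in TBC1D3, 0.116 in MICAL1-M1) or Epha5 (0.129 in TBC1D3, 0.116 in MICAL1-M1). Dner stood at 4.50-fold in TBC1D3 and 4.82-fold in MICAL1-M1. Slc30a4, a zinc transporter gene, stood at 5.94-fold in TBC1D3 and 4.10-fold in MICAL1-M1. Bcl9, a Wnt cofactor, stood at 4.06-fold in TBC1D3 and 4.15-fold in MICAL1-M1. The chromatin protein gene Psip1 stood at 4.51-fold in TBC1D3 and 3.88-fold in MICAL1-M1. The small GTPase genes Arl4c and Rab2a stood at 3.90 and 4.36-fold in TBC1D3, and at 3.67 and 3.60-fold in MICAL1-M1. The RNase gene Zc3h12c stood at 4.06-fold in TBC1D3 and 3.60-fold in MICAL1-M1, and Epha5 at 3.89-fold in TBC1D3 and 3.55-fold in MICAL1-M1. Gm20783 and its neighbour LOC108167694 share a peak of 5.40-fold in TBC1D3 and 3.88-fold in MICAL1-M1. A fold counts over its own library's background, so the pairs show presence in both lists and no change.

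Gene classes were compared by the share of members with a gene-end summit and, since the lists differ in length, by summits per Mb of gene-end windows over the list's own mean per Mb (relative density). All protein-coding genes stood at a share of 34.7% and a density of 1.31 (1.28 to 1.34) in TBC1D3, and at 40.4% and 2.08 (2.04 to 2.12) in MICAL1-M1. Of 25 lists, 7 had the larger share in TBC1D3, 16 in MICAL1-M1 and 2 were equal. The exact intervals were apart for 6, of which 5 were lower in TBC1D3 (axon guidance, immediate early, oxidative phosphorylation, Zfp zinc finger and actin regulator genes) and 1 was higher (olfactory and vomeronasal receptors). When a summit anywhere in the gene span counted, the difference of actin regulator genes went to 0 points (-32.1 at gene ends). That of axon guidance genes went to -3.70 points (-29.6 at gene ends) and that of Zfp genes to 3.61 points (-15.7 at gene ends). All protein-coding genes turned round as well, from 34.7% in TBC1D3 and 40.4% in MICAL1-M1 at gene ends to 68.6% and 61.5% over spans. Over spans, 47 of 56 actin regulator genes were occupied in each list. Of 54 axon guidance genes, 50 were occupied in TBC1D3 and 52 in MICAL1-M1. Where so few genes are left unoccupied, the span measure has little room for a difference and cannot decide on that at gene ends. Genes in clusters share peaks, and the lists are described against all genes with no test.

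Immediate early genes, which neuronal activity induces quickly, had the widest gap of the 20 lists other than cell type markers. Of 38, 18 were occupied in TBC1D3 and 33 in MICAL1-M1, with densities of 1.64 (1.0 to 2.53) in TBC1D3 and 5.36 (3.94 to 7.13) in MICAL1-M1. At equal list size the counts were 14 in TBC1D3 and 33 in MICAL1-M1. Jun, a subunit of AP-1, had a MICAL1-M1 peak of 4.37-fold (q = 0.00101) and no TBC1D3 summit within 1 kb of its ends, as had Klf10, Klf6 and Ptgs2 at 3.18, 3.18 and 3.05-fold. Jun, Klf10 and Klf6 did have a TBC1D3 peak within 3 kb of the summit's gene end, and Ptgs2 did not. Nr4a1, Nr4a2 and the neurotrophin gene Bdnf had TBC1D3 summits alone in the 1 kb windows, at 2.46, 2.26 and 2.12-fold. Egr1, a zinc finger factor gene, had 3.29-fold in TBC1D3 (q = 0.571) and 4.87-fold in MICAL1-M1 (q = 7.60e-10), and Junb, Gadd45g and Arc were also in both. Of these 38 genes, 30 (78.9%) were occupied in mCherry at DIV14 and 20 (52.6%) in mCherry at DIV7. The shares of all protein-coding genes were 44.3% in mCherry at DIV14 and 34.3% in mCherry at DIV7.

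Genes of synapses and axons were occupied more often than all genes in both lists. They are also long, with median spans of 64.3 to 351 kb by list against 17.5 kb for all genes. Among all genes under 10 kb, 29.0% were occupied in TBC1D3 and 27.9% in MICAL1-M1. Among those over 300 kb the shares were 52.9% in TBC1D3 and 66.4% in MICAL1-M1. The part of gene length in the shares of these lists was not tested. Postsynaptic glutamate genes had 38 of 59 in TBC1D3 and 42 of 59 in MICAL1-M1, of which 30 were in both. Among these were the receptor subunit genes Grin2b (3.60-fold in TBC1D3, 3.32-fold in MICAL1-M1) and Grik2 (3.16-fold in TBC1D3, 3.59-fold in MICAL1-M1). A gene counted in both need not have its summits at the same end. At Grik2 the TBC1D3 summit (49094313) and the MICAL1-M1 summit (49790073) lay at opposite ends. No MICAL1-M1 peak lay within 3 kb of the end with that TBC1D3 summit. Presynaptic release genes had 24 in TBC1D3 and 36 in MICAL1-M1 of 57. Cplx1, Syt11 and the fusion ATPase gene Nsf were in TBC1D3 alone, at 3.61, 3.61 and 3.48-fold, and the calcium sensor gene Syt1 and the SNARE gene Snap25 in MICAL1-M1 alone, at 3.05 and 2.78-fold. Inhibitory synapse genes had 14 in TBC1D3 and 19 in MICAL1-M1 of 29, with both GABA synthesis genes, Gad1 and Gad2, in MICAL1-M1 alone. Neuronal adhesion genes had 26 in TBC1D3 and 37 in MICAL1-M1 of 52, with Cntn1 and Ncam1 in TBC1D3 alone and Cntnap2 and Nrxn3 in MICAL1-M1 alone. Axon guidance and immature neuron genes had 26 in TBC1D3 and 42 in MICAL1-M1 of 54. In this list 2 genes were in TBC1D3 alone, Plxnc1 and Robo3, and 18 in MICAL1-M1 alone, among them Ephb1, Dpysl3 and Robo2. Voltage-gated channels went the other way, with 29 in TBC1D3 and 24 in MICAL1-M1 of 42, and Cacna1a (3.61-fold) and Kcnq5 (3.11) in TBC1D3 alone. That difference of 11.9 points (TBC1D3 minus MICAL1-M1) turned to -2.38 points at a p of at most 0.01 and to -26.2 points for the strongest 50000 peaks of each list, and their relative density was 2.64 in TBC1D3 and 3.17 in MICAL1-M1. The difference of the postsynaptic list, -6.78 points, turned to 6.78 points over gene spans. There all protein-coding genes also had the larger share in TBC1D3, at 68.6% against 61.5% in MICAL1-M1.

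Constitutive, actin and chromatin gene classes had larger shares in MICAL1-M1, as had all protein-coding genes. Of these, 34.7% were occupied in TBC1D3 and 40.4% in MICAL1-M1, a difference of -5.63 points. At equal list size the shares of all genes were 27.7% in TBC1D3 and 40.4% in MICAL1-M1. Oxidative phosphorylation genes had 38 in TBC1D3 and 64 in MICAL1-M1 of 104, with Ndufb2 and Ndufv3 of complex I in MICAL1-M1 alone and Ndufs4 in both. Cytosolic ribosomal protein genes had 35 in TBC1D3 and 48 in MICAL1-M1 of 82, a difference of -15.9 points (-31.2 to 0.288). Clustered histone genes had 26 in TBC1D3 and 42 in MICAL1-M1 of 64, at densities of 1.63 (0.948 to 2.60) in TBC1D3 and 5.07 (3.59 to 6.95) in MICAL1-M1, though several histone genes share a peak. Zfp zinc finger genes, many of whose products recruit heterochromatin factors, had 128 in TBC1D3 and 189 in MICAL1-M1 of 388. That direction turned round over gene spans, as did that of all protein-coding genes. Actin regulator genes had 16 in TBC1D3 and 34 in MICAL1-M1 of 56, a difference absent over gene spans, where 47 were occupied in each list. Actb, the beta-actin gene (4.14-fold, q = 0.00254), the cofilin phosphatase gene Ssh2 (3.52), the cofilin gene Cfl1 (3.31) and Evl (3.13) were in MICAL1-M1 alone. The ATRX and heterochromatin partner list had 15 in TBC1D3 and 27 in MICAL1-M1 of 44, a difference of -27.3 points that was -2.27 points over gene spans. Over spans, 36 of its genes were occupied in TBC1D3 and 37 in MICAL1-M1. Daxx itself and Cbx5, which encodes HP1-alpha, were in MICAL1-M1 alone at 1.62 and 3.38-fold, Trim28 in TBC1D3 alone at 2.71-fold, H3f3a in both, and H3f3b and Setdb1 in neither.

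Olfactory receptor, developmental and imprinted genes had the larger share in TBC1D3, and protocadherin genes had equal shares within 1 kb of gene ends. Olfactory and vomeronasal receptor genes, silent in most neurons, had a gene-end summit in 155 of 1456 in TBC1D3 (10.6%, 9.11 to 12.3) and 28 in MICAL1-M1 (1.92%, 1.28 to 2.77), and 104 in TBC1D3 and 28 in MICAL1-M1 at equal list size. Both lists were still below their own means there, at densities of 0.445 (0.380 to 0.517) in TBC1D3 and 0.104 (0.0690 to 0.150) in MICAL1-M1. The count was 14 (0.962%) in mCherry at DIV14 and 239 (16.4%) in mCherry at DIV7, beside 44.3% and 34.3% of all protein-coding genes. The start sites of these genes had a median of 1 CG in 300 bases. Developmental factor and Wnt genes had 91 in TBC1D3 and 68 in MICAL1-M1 of 183, with Gata4, Hoxd11 and En1 in TBC1D3 alone, but 76 in TBC1D3 and 68 in MICAL1-M1 at equal list size, where the difference was 4.37 points (-5.996 to 14.6). Their densities were 2.11 (1.76 to 2.52) in TBC1D3 and 2.14 (1.72 to 2.63) in MICAL1-M1. Clustered protocadherin genes, which give neurons their surface identity, had 25 of 57 in each list, with densities of 2.29 (1.55 to 3.27) in TBC1D3 and 1.38 (0.736 to 2.36) in MICAL1-M1. Their shares differed by 36.8 points (18.4 to 52.8) with a window of 3 kb and by 19.3 points (1.79 to 35.7) over gene spans, higher in TBC1D3. Imprinted genes had 19 in TBC1D3 and 15 in MICAL1-M1 of 39, a difference of 10.3 points that turned to -7.69 points for the strongest 50000 peaks.

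Gene families of the constructs were occupied in both lists, beside 34.7% of all protein-coding genes in TBC1D3 and 40.4% in MICAL1-M1. The MICAL and actin oxidation list had 8 of 15 in TBC1D3 (53.3%, 26.6 to 78.7) and 6 in MICAL1-M1 (40%, 16.3 to 67.7). Each interval includes the share of all protein-coding genes in the same list. The difference of 13.3 points turned to -13.3 points for the strongest 50000 peaks. Mical1 itself had no gene-end summit in either list, Mical2 was in both (2.25-fold in TBC1D3, 3.32-fold in MICAL1-M1) and Mical3 in TBC1D3 alone (2.26). The methionine sulfoxide reductase gene Msra was in MICAL1-M1 alone (3.04), while Msrb3 was in TBC1D3 alone (2.10). RAB GTPase genes had 28 in TBC1D3 and 34 in MICAL1-M1 of 55, a difference of -10.9 points that turned to 14.5 points over gene spans. The shares of all protein-coding genes over spans were 68.6% in TBC1D3 and 61.5% in MICAL1-M1. TBC domain genes, the mouse relatives of TBC1D3, had 16 in TBC1D3 and 26 in MICAL1-M1 of 38, with Tbc1d1 in TBC1D3 alone and Tbc1d19, Tbc1d20 and Tbc1d2 in MICAL1-M1 alone.

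Markers of cell types are given as gene loci and not as expression. Beside them, 34.7% of all protein-coding genes were occupied in TBC1D3 and 40.4% in MICAL1-M1. Neuron marker genes had 2 of 10 occupied in TBC1D3 and 8 in MICAL1-M1, microglia marker genes 3 in TBC1D3 (C1qa, C1qc and Tmem119) and 0 in MICAL1-M1 (0 to 30.8%), and astrocyte marker genes 4 in each list. Oligodendrocyte marker genes had 4 in TBC1D3 and 5 in MICAL1-M1 of 9, and fibroblast and endothelial marker genes 6 in TBC1D3 and 3 in MICAL1-M1 of 10. With 9 or 10 genes a list, the intervals of all 5 marker lists overlapped. Over gene spans the difference of the neuron markers was 0 points, with 9 of 10 occupied in each list. The part of cell mixture in the results was not tested.

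**Figure D5:**
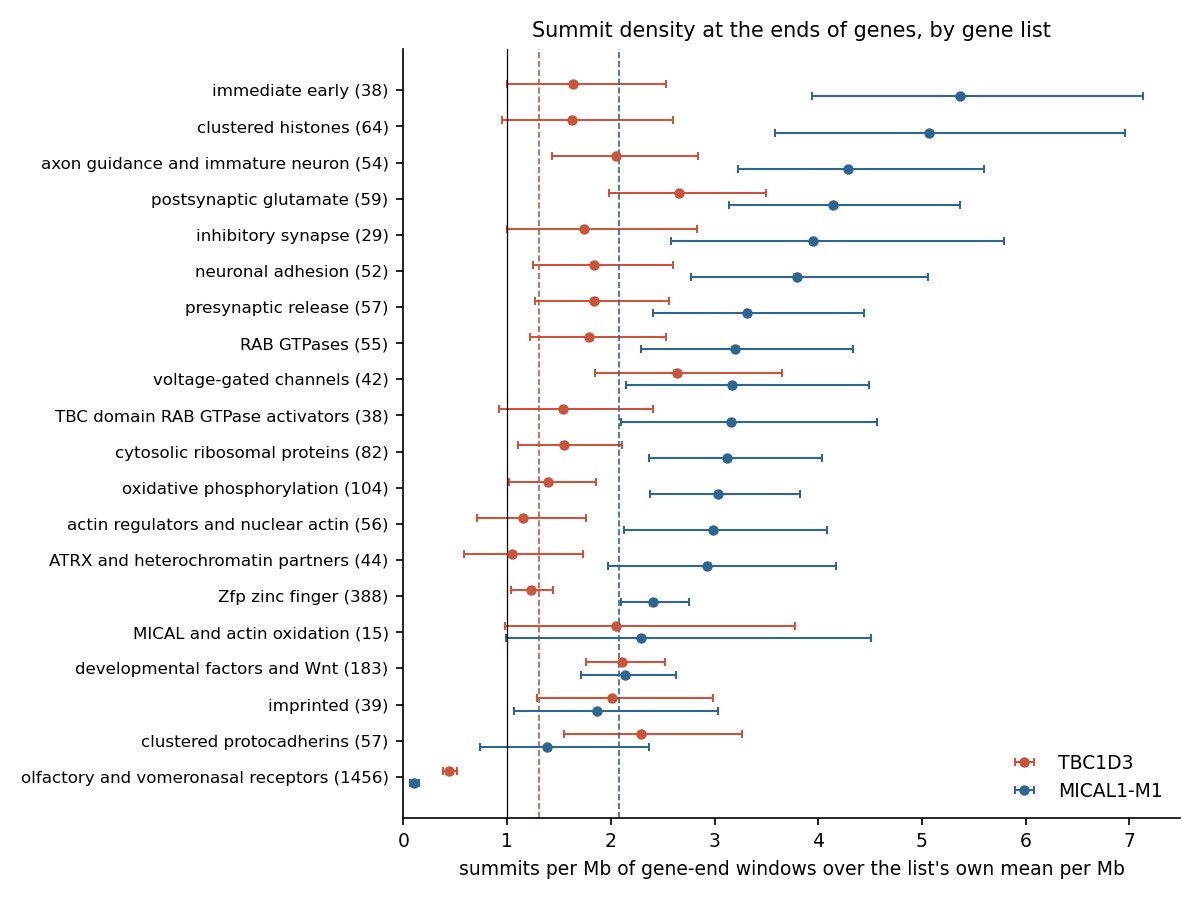
Summits per Mb of gene-end windows over each list's own mean per Mb (x axis, ratio) for 20 gene lists (number of genes in brackets), TBC1D3 above MICAL1-M1 in each pair, with exact 95% Poisson intervals; dashed lines show all protein-coding genes (1.31 in TBC1D3, 2.08 in MICAL1-M1). Immediate early genes lie at 1.64 in TBC1D3 and 5.36 in MICAL1-M1, olfactory and vomeronasal receptors at 0.445 in TBC1D3 and 0.104 in MICAL1-M1.

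Dense runs of summits differed between the lists. In 100 kb windows the median was 8 TBC1D3 and 5 MICAL1-M1 summits, and 10 windows were taken by the larger count of either list, a choice that favours windows led by 1 list. The window on chromosome 18 from 37700001 to 37800000, inside the protocadherin gamma cluster, held 47 TBC1D3 summits (34.5 to 62.5) and 15 of MICAL1-M1 (8.40 to 24.7), with 6 in mCherry at DIV14 and 41 in mCherry at DIV7. The window on chromosome 11 from 3100001 to 3200000 at Sfi1 held 32 TBC1D3 summits and 2 of MICAL1-M1, with 0 in mCherry at DIV14 and 26 in mCherry at DIV7. Of the 32 TBC1D3 summits, 16 had a q of at most 0.05. Windows on chromosome 4 at the zinc finger genes Zfp978 and Zfp982 held 31 and 29 TBC1D3 summits and 1 MICAL1-M1 summit each. The same windows held 0 and 1 summits in mCherry at DIV14, and 14 and 16 in mCherry at DIV7. Near-identical copies of such genes can split or collect reads, and how the authors placed repeated reads was not used here. The window on chromosome 18 from 69500001 to 69600000 in Tcf4, a neuronal transcription factor gene, held 12 TBC1D3 summits (6.20 to 21.0) and 42 of MICAL1-M1 (30.3 to 56.8), with 36 in mCherry at DIV14 and 14 in mCherry at DIV7. Windows at Zeb2, Nav2 and Meis2 held 14, 14 and 13 TBC1D3 summits and 29 MICAL1-M1 summits each.

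Spans of long genes also differed between the lists, in genes chosen after their values were seen. Among 2313 protein-coding genes of 100 kb or more, the median was 8.41 summits per 100 kb in TBC1D3 and 7.22 in MICAL1-M1, beside chromosome means of 8.12 in TBC1D3 and 5.83 in MICAL1-M1. Of these genes, 1303 had more summits in TBC1D3 and 893 had more in MICAL1-M1. Qk, which encodes the RNA-binding protein quaking (chromosome 17, 10206471 to 10319361), held 3 TBC1D3 summits (0.619 to 8.77) and 39 of MICAL1-M1 (27.7 to 53.3), with 23 in mCherry at DIV14 and 13 in mCherry at DIV7. Tcf4 held 51 TBC1D3 and 108 MICAL1-M1 summits, and the dendritic microtubule gene Map2 held 26 TBC1D3 and 62 MICAL1-M1 summits. Sh3gl2, Nfib, Mef2c, Rapgef2, Meis2, Zeb2 and Lims1 completed the 10 genes with the largest lead of MICAL1-M1, with counts between 6 and 27 in TBC1D3 and between 18 and 52 in MICAL1-M1. The 10 genes with the largest lead of TBC1D3 were all of the protocadherin gamma cluster and overlap one another. The longest, Pcdhga2, held 72 TBC1D3 and 27 MICAL1-M1 summits.

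MICAL1-M1-only summits recurred in mCherry DIV14 peaks more often than TBC1D3-only summits did. TBC1D3-only summits lay inside mCherry DIV14 peaks in 2.81% of cases (2.73 to 2.88) and MICAL1-M1-only summits in 8.66% (8.51 to 8.82), beside 2.20% of bases. Shared summits did so in 18.9% of cases as placed by TBC1D3 and 19.7% as placed by MICAL1-M1. In mCherry DIV7 peaks, which covered 3.26% of bases, lay 5.02% of TBC1D3-only (4.92 to 5.12), 4.59% of MICAL1-M1-only (4.47 to 4.70), and 8.55% and 7.90% of shared summits as placed by TBC1D3 and by MICAL1-M1. Of the peaks with a q of at most 0.05, 15.2% in TBC1D3 and 63.5% in MICAL1-M1 had a summit inside a mCherry DIV14 peak, and 53.4% in TBC1D3 and 19.8% in MICAL1-M1 inside a mCherry DIV7 peak. TBC1D3 and mCherry DIV7 had the lowest recovered backgrounds and MICAL1-M1 and mCherry DIV14 the highest, so age, construct and depth cannot be told apart in these shares.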

How the data were processed

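ATRX ChIP-seq peak lists of 4 libraries, 1 per group, were used as deposited in narrowPeak layout. Per the labels' protocols, chromatin was made with an enzymatic kit, input DNA served as background and libraries were read from both ends. The tools per the submitters' processing notes are ChIPseeker 1.26.2, MACS 1.4.2, SAMtools 1.9 and Bowtie 1.3.0. Their settings, the genome build and the caller behind the lists were not given in the sources used here. The deposited fold is the authors' ratio of pileup to local background, the deposited -log10 columns were read as p and q from the narrowPeak layout, the deposited score is a whole number made from p, and the deposited offset gives the summit.

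Gene positions and start sites came from RefSeq tables of GRCm38.p6, and summits peaked in the first 250 bp after those start sites in each list. Peaks were compared by summit position and by overlap of at least 1 bp, on full lists and on lists cut to 140005 peaks by p, then fold, then a seeded draw. Depth was recovered by fitting a whole pileup and a Poisson background to fold and p. The strongest rows by p were left out, which kept 195039 TBC1D3 and 139986 MICAL1-M1 rows. Of these, 100.0% in TBC1D3 and 99.996% in MICAL1-M1 were fitted. The check on simulated data used rows made by the same formula, with backgrounds above the 1.22 of TBC1D3. It shows only that the formula can be inverted there. The fit bears on fold and p, and all counts by q rest on the layout alone. Intervals are exact binomial or Poisson at 95% and cover counting error only. Python 3.11.15, NumPy 2.4.6, pandas 2.3.3, SciPy 1.17.1 and matplotlib 3.10.9 were used. The members, gene lists and rules were chosen with earlier results of these data known. Named genes were the 10 highest by own-list fold in each of TBC1D3-only and MICAL1-M1-only with no peak of the other list within 3 kb, the 10 highest by the lower within-list percentile in both, up to 4 per class of each gene list, a fixed set of MICAL and ATRX partner genes, the 10 strongest peaks per class with a q of at most 0.05, and the 10 windows with the largest count in either list. Start-site, CG and density measures and long genes were added after the data were seen. Peaks on X, Y and scaffolds were left out of the comparisons. Alternatives were p and q thresholds, overlap rules, list sizes and gene windows.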

Additional observations from a re-analysis of the deposited data

Results flagged for a closer look

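Peaks outside chromosomes 1 to 19 entered no comparison, and their share was above that of mCherry at DIV14. Chromosome X held 1.79% of all TBC1D3 peaks (1.73 to 1.85) and 0.924% of all MICAL1-M1 peaks (0.874 to 0.975), beside 0.418% in mCherry at DIV14 and 2.76% in mCherry at DIV7. Unplaced scaffolds held 0.152% of TBC1D3 peaks (0.136 to 0.170), 0.0368% of MICAL1-M1 peaks and 0.0176% of mCherry DIV14 peaks.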

How the results depend on the processing

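Each list is 1 library, so no replicate could be left out and the limits are those of depth. No paired analysis was possible because each group holds 1 library. The share of summits inside a peak of the other list (5.62% of TBC1D3, 5.86% of MICAL1-M1) was 4.27% of TBC1D3 and 5.14% of MICAL1-M1 summits at a p of at most 0.01, 10.5% of TBC1D3 summits at a q of at most 0.05, 9.25% and 12.8% for TBC1D3 and MICAL1-M1 summits within 500 bp of each other, and 5.38% and 5.70% without the densest windows, a setting chosen after the data were seen. Overlap of peaks, first for TBC1D3 and then for MICAL1-M1, was 6.40% and 10.5% at p, 10.8% and 6.01% at q, 6.15% and 8.44% with 0.5 of the shorter peak required, and 9.25% and 12.8% with 250 bp on each side of the summit. At equal size the shares in the same order were 4.93% and 3.64% at p, 8.45% and 10.5% at q, 4.19% and 3.01% for 50000 peaks, and 2.87% and 2.14% for 10000.

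The share at gene ends over that of bases, for TBC1D3-only, MICAL1-M1-only, shared TBC1D3 and shared MICAL1-M1 summits, was 1.04, 2.39, 6.14 and 6.07 at p, and 3.18, 14.2, 4.04 and 3.49 at q. It was 0.943, 1.25, 2.54 and 2.50 with 3 kb. At equal size TBC1D3-only gave 1.03 and shared summits 4.89 and 4.80. Without the densest windows MICAL1-M1-only gave 1.81 and shared summits 4.69 and 4.59. TBC1D3-only stayed below MICAL1-M1-only under each of these. At q MICAL1-M1-only was above shared summits, which came from only 32 TBC1D3 and 37 MICAL1-M1 peaks. Over the full lists MICAL1-M1-only was below shared summits. The last of 10 chromosome stretches held 10.3% of MICAL1-M1-only summits at p, 14.02% of TBC1D3-only and 11.4% of MICAL1-M1-only at q, and for TBC1D3-only 11.3% at equal size and 10.9% without the densest windows.

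Genes in both lists numbered 2359 at p and 1123 for 50000 peaks, where TBC1D3 alone had 1389. At q, 26 genes were in TBC1D3 alone, 285 in MICAL1-M1 alone and 5 in both. With 3 kb, 7906 were in both. With gene spans, 2102 were in MICAL1-M1 alone and 10605 in both. Over all annotated genes, 8487 were in TBC1D3 alone, 7855 in MICAL1-M1 alone and 5856 in both, an order opposite to that of protein-coding genes. With start sites as the only window, added after the data were seen, TBC1D3 alone had 1940. The difference of the Zfp list of -15.7 points (TBC1D3 minus MICAL1-M1) was 3.61 points over gene spans, where all protein-coding genes turned round as well. Of 25 gene lists, 22 kept the sign of their difference at equal size, 20 at p, 19 for 50000 peaks, 23 with 3 kb and 17 over gene spans. The causes were not tested.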
